A study of Vitis vinifera with 16 samples.

Results

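Of 23984 grape transcripts measured by RNA-seq in ripening berries, 89 (0.371%) kept a level near that of the green berry into véraison and stood at no more than 0.25 of it at harvest. The members were chosen on RPKM (reads scaled to the length of a transcript and the mapped total of its library), averaged first over the libraries of a sample. The mean of E-L35, the véraison stage, had to be 10 RPKM or more. The E-L35 mean over the E-L31 mean, with 1 RPKM added to each, had to lie between 0.5 and 2, and the E-L38 mean over the E-L35 mean, in the same way, had to be 0.25 or less. Transcripts with a mean of 1000 RPKM or more over all 16 samples were left out, as were 2 other records, of HMGR isoforms, that met the limits. Of 8660 transcripts with 10 RPKM or more at E-L35, 7390 lay within the E-L31 limits and 93 of these also met the limit at E-L38, which the last steps brought to 89. All 89 passed the filter for testing, at least 10 counts in at least 2 samples.

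Berries of Muscat Blanc à Petits Grains, a white aromatic wine grape, came from vineyards in Gaotai (GT) and Changli (CL) in the vintages 2011 and 2010. Each combination of region and vintage was sampled at pea size (E-L31), véraison (E-L35), mid-ripening (E-L36) and harvest (E-L38), which gave 8 groups of a region and stage with 2 vintages each. RNA came from deseeded whole berries, a random draw out of a far larger pool of berries, so skin and flesh were not separated. The regions differed in climate and in the age of their vines, and no second site within a region is described, so region, site and vine age cannot be told apart. All vines were of 1 cultivar, raised from cuttings and trained alike, and no treatment is recorded.

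Véraison is the point at which a grape berry stops being hard, green and acid and starts to soften, take up sugar and lose malic acid. Many transcripts of the green berry decline as that switch begins, among them those of photosynthesis, cell division and early wall growth, whereas others remain until sugar has already accumulated. The 89 were chosen to be near their pea-size level at véraison and low at harvest. At véraison, 63 of them were already below their pea-size mean and 26 were above it. By mid-ripening the 89 held a median of 37.2% of their véraison mean. Whether they remained until sugar had accumulated was not tested. In whole-berry RNA, a lower level per cell and a smaller share of the cells that hold a transcript cannot be told apart.

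The records give little beyond an identity. Of the 89, 87 were XM (messenger RNA) records and 2 were XR (non-coding) records, XR_139792.1 and XR_078038.1. RefSeq's gene table (assembly ASM3070453v1) matched 61 of them to a LOC number by accession without the version and left 28 unmatched. The 2 HMGR records that the rule left out are listed by the study among its terpenoid pathway transcripts. None of the 61 matched members carried a descriptive symbol, and none of the 89 appeared in the study's own tables of terpene, hormone or transcription factor genes. Lists by function, and lists of seed and green tissue markers, could therefore not be counted, and no role is given to any member here. The median transcript length was 1284 bases for the members and 1506 bases for all transcripts tested. Reads assigned to a member were over 90% unique in 75 of the 89 and under 50% unique in 7, of which the lowest was XM_002283862.2 with 3.27%. For those 7 the level depends on how shared reads were divided among similar transcripts. In the same gene table, 2 members lay side by side with no protein-coding gene between them, LOC100247409 (XM_002284278.2) and LOC100252577 (XM_003634177.1).

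Samples held 3798921 to 26627006 counts, from 1 library at E-L31 and E-L36 and 2 libraries at E-L35 and E-L38. The 2011 GT sample of E-L31 stood apart from the other E-L31 samples over the rest of the transcriptome. On a scale where the E-L35 samples average 0 and the E-L38 samples average 1, taken over 15969 transcripts that are not members, it lay at -0.03, whereas the 2010 GT sample lay at -0.53 and the 2011 and 2010 CL samples at -0.35 and -0.43. It was not used in the E-L31 mean. For the members its level was mostly near those of the other E-L31 samples. It lay within 2-fold of the E-L31 mean for 77 of the 89, and 85.3% of the 8571 other transcripts with 10 RPKM or more at E-L35 did so. With all 4 E-L31 samples in the mean, 132 transcripts met the limits, the 89 among them.

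The members spanned a wide range of abundance. Their E-L35 mean ran between 10.8 and 733.5 RPKM with a median of 39.1, and 25 members stood at 100 RPKM or more, 28 between 30 and 100, and 36 below 30. The median over members was 47.8 RPKM in pea-size berries, 39.1 at véraison, 15.04 at mid-ripening and 5.69 at harvest. The E-L35 mean was below that of E-L31 in 63 members and above it in 26, so most stood somewhat lower at véraison already, within the limits that chose them.

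**Figure D1:**
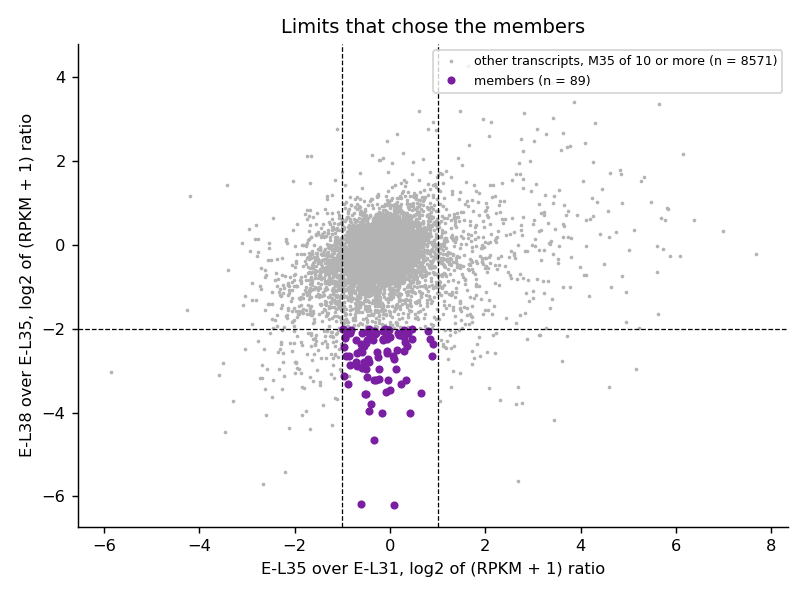
Each point is a transcript with a mean of 10 RPKM or more at E-L35, placed by the log2 ratio of E-L35 over E-L31 (horizontal) and of E-L38 over E-L35 (vertical), both on RPKM + 1, with the 89 members in purple, 8571 other transcripts in grey and the limits of 0.5, 2 and 0.25 as dashed lines. Few transcripts lie in the lower middle field that the members occupy, and the members are crowded against its upper edge.

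The limits cut a continuous range. Just inside the limit on the harvest level stood XM_002274191.2, XM_002282512.1 and XM_002276427.2, whose E-L38 over E-L35 ratios were 24.96%, 24.86% and 24.85%. Just outside it stood XM_002267693.1 and XM_002265876.2, both at 25.3%, and closest of all XM_002270942.2, with 5.08 RPKM at E-L38 and 23.3 RPKM at E-L35. On the limit of abundance, XM_002284370.2, XM_002282512.1 and XM_003634177.1 were inside with 10.8, 10.9 and 12.4 RPKM at E-L35, whereas XM_002279510.1, XM_003632458.1 and XM_002272516.2 were outside with 9.86, 9.66 and 9.35 RPKM. Nothing in these values separates a member at the edge from its neighbour on the other side.

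Harvest levels were low but seldom at zero. The E-L38 mean ran between 0.522 and 161.8 RPKM, with 29 members still at 10 RPKM or more and 6 below 1 RPKM. In 71 members all 4 harvest samples held 10 counts or more, and a count of 0 occurred for 1 member in 1 sample, XM_002263833.1 in the 2011 GT sample of E-L38. Of their E-L35 mean, members held a median of 15.6% at E-L38, with a range of 0.553 to 24.7%. In 20 members the share was under 10% and in 8 under 5%. All 4 E-L38 samples lay below all 4 E-L35 samples in 85 of the 89, a separation that the limits largely set.

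The most abundant member, XM_003631590.1 (LOC100852930), had 581.2 and 1265 RPKM in the 2011 and 2010 GT samples of E-L31 and 1357 and 1673 in those of CL. At E-L35 it had 752 and 668 RPKM in GT and 836 and 679 in CL. At E-L36 the values were 358 and 424 RPKM in GT and 311 and 106 in CL, and at E-L38 they were 48.7 and 32.02 in GT and 239 and 12.5 in CL. The 4 samples of E-L35 lay closest together, and the 2010 CL sample was lowest at both later stages. The 2010 GT value at harvest is the mean of libraries at 55.2 and 8.78 RPKM, and the second lies below both 2010 CL libraries, 13.9 and 11.2 RPKM. The second, XM_002285691.2 (LOC100250052), had 106 and 131 RPKM in GT and 130.2 and 280 in CL at E-L38, against 966 and 504 in GT and 746 and 522 in CL at E-L35. It was the member of the first 10 with the highest harvest mean, 161.8 RPKM.

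XM_002265052.1 (LOC100241904) varied little before the decline. Its 8 values at E-L31 and E-L35 lay between 365 RPKM, in the 2010 CL sample of E-L35, and 597 RPKM, in the 2010 GT sample of E-L31. At E-L36 it still had 232 and 271 RPKM in GT and 392 and 228 in CL, and at E-L38 it had 38.7 and 58.5 in GT and 172.6 and 118 in CL. Both GT values at harvest were less than both CL values. XM_002283862.2 (LOC100245900), nearly all of whose reads were shared with other transcripts, had 41.6 and 34.9 RPKM in GT and 53.5 and 39.4 in CL at E-L38, against 508 and 346 in GT and 362 and 378 in CL at E-L35. Its regions overlapped at both stages.

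The other members of the first 10 were XM_002277772.1, XM_002280737.1, XM_003635352.1, XM_002270580.1, XM_002268977.2 (LOC100246245) and XM_002284190.2, with E-L35 means between 298.0 and 390.8 RPKM. XM_002280737.1 had the widest harvest spread among them, with 9.27 and 6.24 RPKM in GT and 169.7 and 22.3 in CL, although its E-L35 values of 643 and 374 in GT and 276 and 234 in CL differed by far less. XM_003635352.1 had a narrower harvest spread, with 32.7 and 38.4 RPKM in GT and 44.0 and 64.3 in CL.

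**Figure D2:**
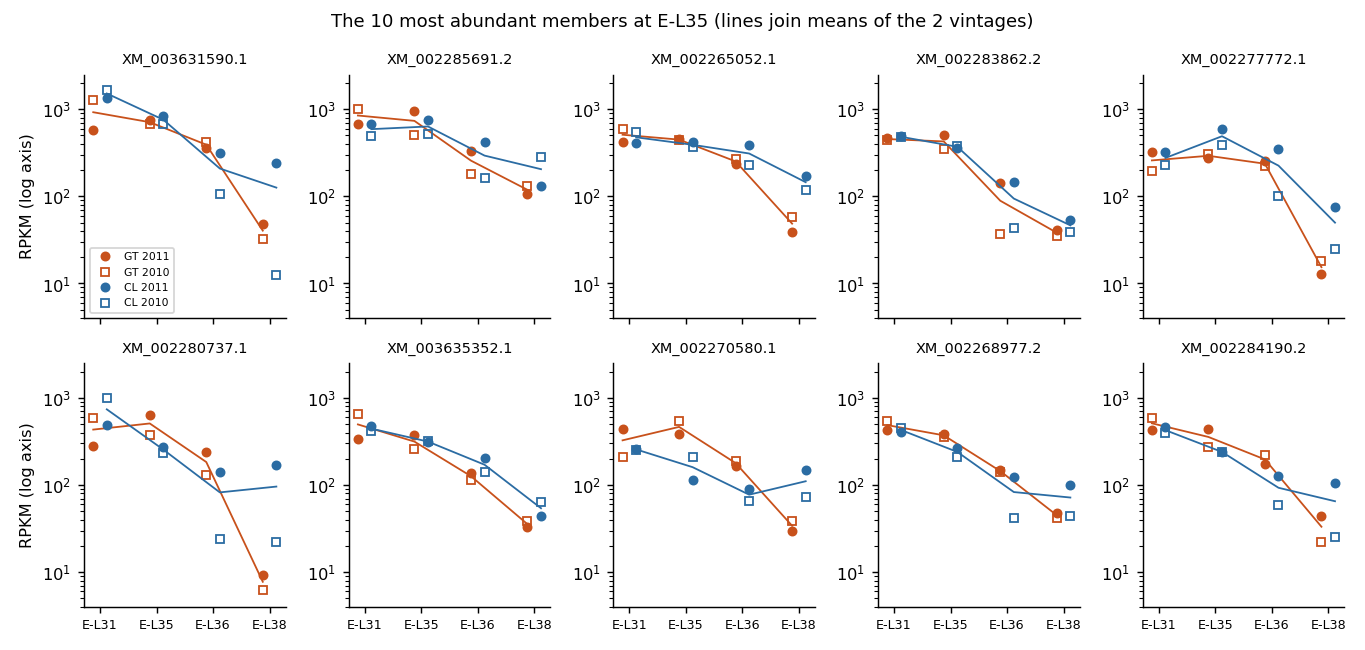
RPKM on a log axis for the 10 members with the highest E-L35 mean, at the 4 stages, with GT (orange) left of CL (blue), filled circles for 2011, open squares for 2010 and lines through the means of the 2 vintages. Most lines change less between E-L31 and E-L35 than after it, and at E-L38 the GT line ends below the CL line in all 10 panels, by a factor that ranges from small (XM_002283862.2) to over 10 (XM_002280737.1).

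The mid-ripening samples show how soon after véraison the members were low. E-L36 levels did not choose the members, except through the mean of all samples, but the E-L35 levels they are set against did, so the shares carry no test. At E-L36 members held a median of 37.2% of their E-L35 mean, with the middle 50% of members between 29.6 and 42.9%. The share was under 25% in 16 members, 25 to 50% in 66 and over 50% in 7. On a log2 scale, a median of 55.2% of the drop between E-L35 and E-L38 lay before E-L36, and over 50% of it lay there in 62 members. All 4 E-L36 samples lay below all 4 E-L35 samples in 63 members, but all 4 E-L38 samples lay below all 4 E-L36 samples in only 17. Within GT both E-L38 samples lay below both E-L36 samples in 85 members, and within CL they did so in 26. No share over all tested is set beside these counts, and the E-L35 and E-L38 samples helped to choose the members. The counts therefore describe the members only, and the difference between GT and CL in them was not tested.

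The members that held the most at E-L36 were XM_002275951.2 (LOC100248011) with 103.8%, XM_002265052.1 with 67.1%, XM_002271495.2 (LOC100248329) with 64.7%, XM_002277772.1 with 59.1% and XM_002278291.1 (LOC100251211) with 56.0%. XM_002275951.2 had 20.0 and 26.9 RPKM in GT and 9.13 and 4.14 in CL at E-L36, against 20.1 and 11.7 in GT and 7.41 and 18.7 in CL at E-L35. Its E-L35 and E-L36 values thus overlapped, at a low level and with 13.1% unique reads. XM_002277772.1 had 253 and 221 RPKM in GT and 350 and 100.3 in CL at E-L36, against 278 and 306 in GT and 590 and 390 in CL at E-L35. Its GT samples at harvest stood at 12.8 and 17.9 RPKM, so in GT nearly all of its decline came between mid-ripening and harvest.

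The members that held the least were XM_002285161.2 (LOC100262729) with 3.84%, XM_002279177.2 (LOC100245945) with 5.77%, XM_002274755.2 (LOC100240763) with 16.6%, XM_002280679.1 with 17.8% and XM_002277318.2 with 18.3%. XM_002285161.2 had 17.9 and 1.93 RPKM in GT and 3.11 and 0.232 in CL at E-L36, against 228 and 161 in GT and 95.1 and 119 in CL at E-L35. All 4 of its harvest values lay between 0.598 and 1.56 RPKM, so most of its decline lay before mid-ripening. XM_002279177.2 had 6.12 and 1.26 RPKM in GT and 17.6 and 3.22 in CL at E-L36, against 178 and 98.0 in GT and 106 and 105 in CL at E-L35. XM_002280679.1 had 0.897 and 3.89 RPKM in GT and 8.90 and 9.07 in CL at E-L38, against 42.7 and 34.6 in GT and 35.0 and 7.46 in CL at E-L36. It was lower at harvest than at mid-ripening in 3 of the 4 series and slightly higher in the 2010 CL one.

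**Figure D3:**
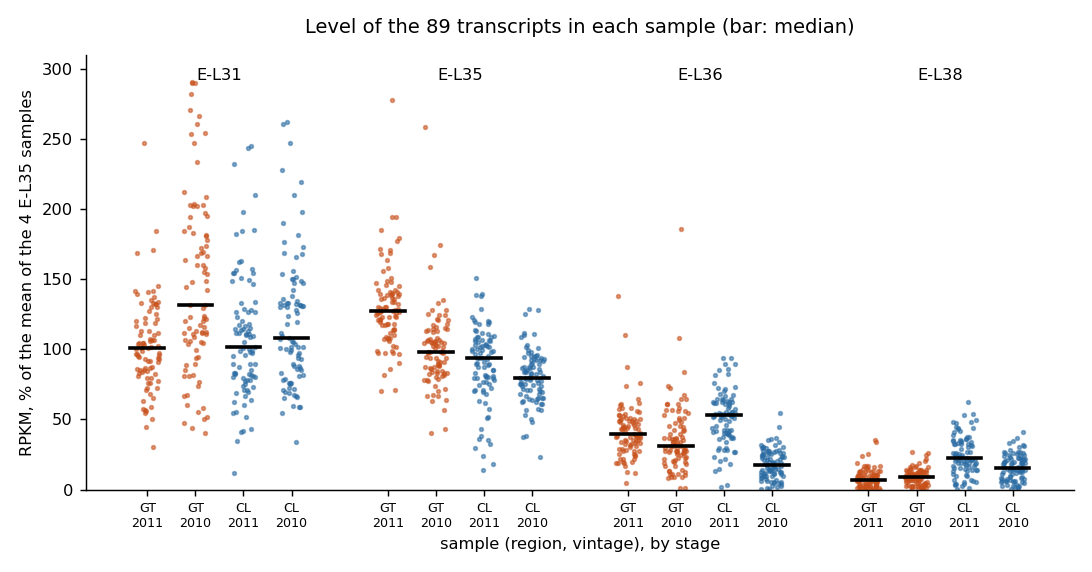
Level of each of the 89 members in each of the 16 samples as a percentage of its mean over the 4 E-L35 samples, with GT in orange, CL in blue and a black bar at the median. The medians of E-L35 lie between 79.9 and 127.4%, those of E-L36 spread over 17.2 to 53.2% with both extremes in CL, and those of E-L38 lie at 6.95 and 9.25% in GT and 22.5 and 15.3% in CL.

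The course of the decline differed between the series of the regions and vintages. Set against the E-L35 sample of the same region and vintage, members at E-L36 held a median of 32.9% in the 2011 GT series, 32.4% in the 2010 GT series, 57.1% in the 2011 CL series and 22.8% in the 2010 CL series. The GT vintages were close to each other, while the CL vintages lay on either side of them. At E-L38 the medians were 5.65 and 8.80% in the 2011 and 2010 GT series and 25.5 and 19.5% in the 2011 and 2010 CL series. In 2010 CL berries the median share was thus nearly as low at E-L36 as at E-L38, whereas in GT berries a further decline of several fold separated the 2 stages. By the means of the 2 vintages, 88 members held no more than 25% of their E-L35 level at harvest in GT and 39 did in CL. The median ratio of E-L35 over E-L38 was 13.3 in GT and 4.04 in CL. That every member met the limit over both regions together was set by the rule. Which region lost more was not set, but a member above the limit in one region had to lie below it in the other. The counts for GT and CL are thus tied to each other by the rule and carry no test.

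**Figure D4:**
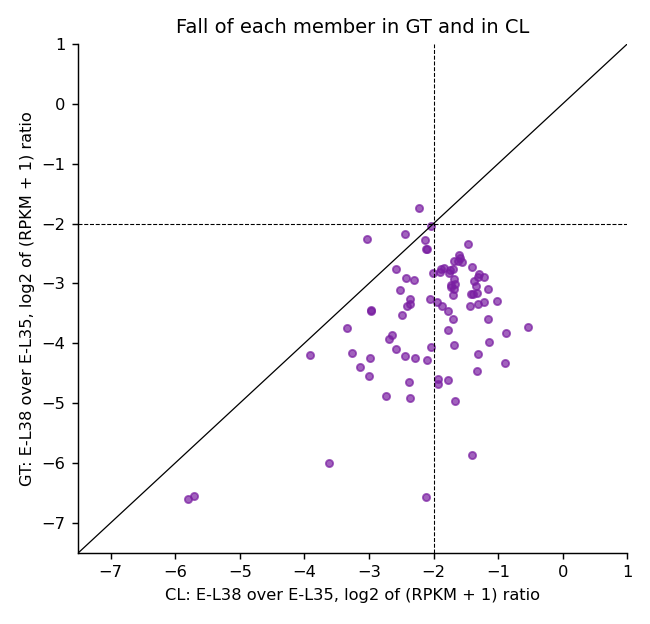
Log2 ratio of E-L38 over E-L35 on RPKM + 1 for each of the 89 members in GT (vertical) and CL (horizontal), from means of 2 vintages, with the line of equal change and dashed lines at a ratio of 0.25. Of the 89 points, 86 lie below the line of equal change, meaning a lower ratio in GT. By the rule, a point to the right of the vertical dashed line had to lie below the horizontal one.

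At harvest the members were lower in GT than in CL. The sum of their RPKM at E-L38 was 834 and 894 in the 2011 and 2010 GT samples and 2390 and 1428 in the 2011 and 2010 CL samples. Both GT samples lay below both CL samples in 68 members, above both in 4, and overlapped them in 17. Over all transcripts tested, both GT samples were below both CL samples in 26.4% and above both in 15.9%. When the libraries were taken singly, all 4 GT libraries lay below all 4 CL libraries in 39 members, set against 7.73% of all tested. In the edgeR quasi-likelihood fit on counts, GT over CL gave a negative log2 ratio in 81 of 89 members (56.3% of all tested), with a median of -1.28 against -0.06 over all tested, and it was -1 or lower in 53 members (9.97% of all tested).

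No single member passed the test at harvest. A call needed an adjusted p (Benjamini-Hochberg over all 19026 transcripts tested) of 0.05 or less and an absolute log2 ratio of 1 or more, and edgeR called 0 members and 0.00526% of all tested. The lowest adjusted p of a member was 0.171. At an unadjusted p under 0.05, edgeR had 50 members, 47 of them lower in GT (5.86% of all tested) and 3 higher (1.96%). DESeq2 called 14 members, all lower in GT, where it called 0.457% of all tested as lower. With each library as its own value, which counts the 2 libraries of a sample as replicates, 33 members were called, all lower, and 1.45% of all tested. The p-values measure the spread between the 2 vintages of a region and stage. The study describes repeat berry lots within a vintage, but the labels do not tie the libraries to them.

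The shift at harvest was seen within each vintage, with the larger median in 2011, a difference that was not tested. In 2011 the GT level was below the CL level in 79 members with a median log2 ratio of -1.25 on RPKM + 1, and in 2010 in 80 members with a median of -0.66. Over all tested, 57.3% were lower in GT in 2011 and 53.8% in 2010. Without the 2011 CL sample of E-L38, the edgeR median was -0.93, with 76 members below 0 and 20 at an unadjusted p under 0.05. Without the 2011 GT sample of E-L38 it was -1.05, with 82 below 0 and 21 at an unadjusted p under 0.05. The 2 libraries of a harvest sample were over 3-fold apart in 14 members in the 2011 GT sample, 27 in the 2010 GT sample, 1 in the 2011 CL sample and 5 in the 2010 CL sample. Of tested transcripts with a mean of 1 RPKM or more, 3.35, 5.84, 1.14 and 2.22% were so in the same order. When each of the 8 harvest libraries was left out in turn, a check added after the data were seen, 60 to 70 members had both GT samples below both CL samples, against 22.9 to 27.6% of all tested.

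The members that DESeq2 called included some of the most abundant. XM_003634627.1 had 10.2 and 11.1 RPKM in GT and 37.4 and 33.8 in CL at harvest, the clearest separation, at a log2 ratio of -1.58 ± 0.26 (SE), with an edgeR adjusted p of 0.171 and a DESeq2 adjusted p of 0.000409. At E-L35 its 4 values lay between 79.8 and 126 RPKM and the regions overlapped. XM_002265052.1, whose values are given above, had a log2 ratio of -1.48 ± 0.31 (SE), with adjusted p values of 0.288 in edgeR and 0.00167 in DESeq2. The non-coding record XR_139792.1 had 2.47 and 3.78 RPKM in GT and 15.4 and 13.7 in CL, a log2 ratio of -2.13 ± 0.43 (SE), with adjusted p values of 0.288 in edgeR and 0.00672 in DESeq2. In all 14, both GT samples lay below both CL samples, and in 13 this held without any 1 harvest library.

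The sizes of the difference varied among the called members. XM_002280737.1 had the largest of the 14, -3.64 ± 1.00 (SE) on the log2 scale, or 12.4-fold lower in GT, but its CL samples differed from each other by far more than its GT samples. XM_002269641.2 (LOC100251616) had 3.54 and 5.91 RPKM in GT and 75.6 and 9.52 in CL, a log2 ratio of -2.99 ± 0.83 (SE), and its regions overlapped without the first 2010 GT library. XM_002275334.1 (LOC100253669) had 2.58 and 3.73 RPKM in GT and 8.55 and 8.96 in CL, a log2 ratio of -1.42 ± 0.30 (SE). In the last of these the vintages lay closest together within each region. XM_003634627.1, XR_139792.1, XM_002269641.2 and XM_002275334.1 were named after their values were seen.

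Several abundant members gave no clear difference. XM_003631590.1 had a log2 ratio of -1.60 ± 0.88 (SE) that rested on the 2011 CL sample, and without that sample the ratio was 1.53. The ratios of XM_002268977.2, -0.65 ± 0.40 (SE), and XM_002284190.2, -0.83 ± 0.55 (SE), also turned positive without it, to 0.01 and 0.54. In XM_002268977.2 the GT samples had 48.2 and 41.8 RPKM and the CL samples 99.95 and 43.7, so the 2010 samples were alike. XM_002285691.2 had -0.65 ± 0.50 (SE) and XM_003635352.1 -0.48 ± 0.30 (SE), and neither came near the limit.

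A few members ran the other way. The 8 members with a positive ratio at harvest were XM_002274191.2, XM_002270934.1, XM_002285161.2, XM_002275119.2, XM_002274755.2, XM_003632636.1, XM_002268014.1 and XM_002282474.2, and 3 of them had an unadjusted p under 0.05. XM_002270934.1 (LOC100261985) had 41.8 and 35.8 RPKM in GT and 8.70 and 8.98 in CL, a log2 ratio of 2.17 ± 0.82 (SE) and an edgeR adjusted p of 0.578. Its 2010 GT value is the mean of libraries at 63.7 and 7.94 RPKM, and without the first of these the regions overlapped and the log2 ratio on RPKM + 1 was 1.39 in place of 2.02. It was already higher in GT at E-L35, with 114 and 422 RPKM in GT and 22.9 and 93.2 in CL, where the ratio was 2.02 ± 0.79 (SE). XM_003632636.1 had a harvest ratio of 2.02 ± 0.66 (SE), and XM_002275119.2 (LOC100249279) had 0.69 ± 0.26 (SE), with 50.8 and 36.8 RPKM in GT and 31.0 and 22.1 in CL. The regions also overlapped in each of these when 1 GT library was left out, the first of 2011 in XM_003632636.1 and the first of 2010 in XM_002275119.2.

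Before harvest the ratios of the members lay much nearer to those of all transcripts. In pea-size berries GT over CL had a median log2 ratio of 0.25, with 63 of the 89 above 0 (49.6% of all tested). The median was 0.14 at véraison, with 53 above 0 (50.5% of all tested), and 0.13 at mid-ripening, also with 53 (51.2%). edgeR called 0 members at each of these stages, as against 0, 0 and 0.021% of all tested. The members at an unadjusted p under 0.05 were 7 at E-L31 (13.9% of all tested), 6 at E-L35 (11.4%) and 14 at E-L36 (10.2%), and DESeq2 called 0 members at pea size (2.43% of all tested), 0 at véraison (0.778%) and 1 at mid-ripening (0.715%). Both GT samples lay above both CL samples at E-L35 in 43 of the 89 members (42.1% of all tested) and below both in 5 (13.4% of all tested). The counts and RPKM are scaled differently at that stage, since the median of all tested was 0.01 in the edgeR fit and 0.16 on RPKM.

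**Figure D5:**
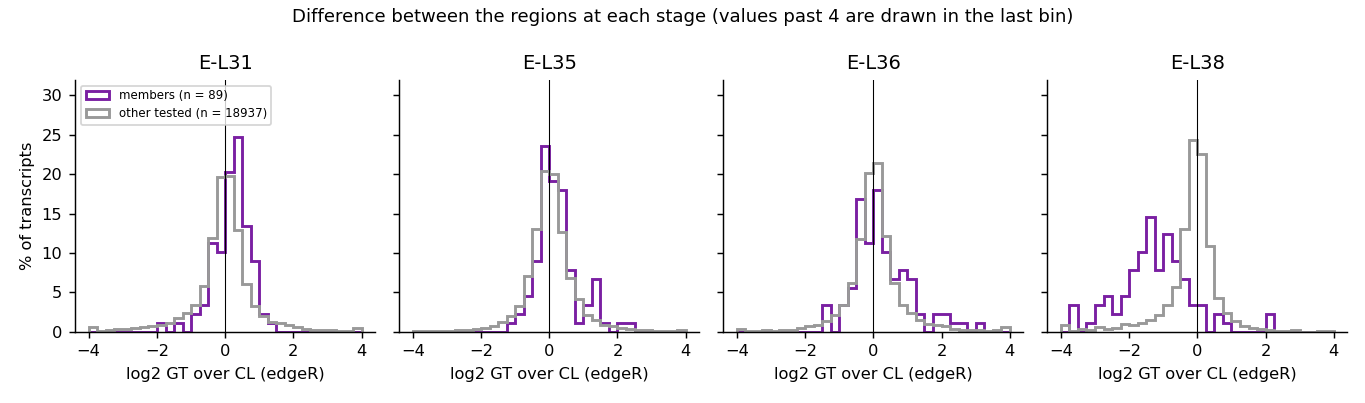
Distribution of the edgeR log2 ratio of GT over CL at each of the 4 stages, for the 89 members (purple) and the other transcripts tested (grey), as a percentage of each set in bins of 0.25. The outlines largely overlap at E-L31, where the members lie somewhat to the right, and at E-L35 and E-L36, with member medians of 0.25, 0.14 and 0.13, and at E-L38 the members lie to the left with a median of -1.28.

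The E-L35 and E-L38 samples chose the members by their means over both regions, and they also enter the next test. The difference between the regions in the change from E-L35 to E-L38 was tested as an interaction in the same fit. Its log2 value was negative, a lower E-L38 over E-L35 ratio in GT, in 84 of 89 members (55.5% of all tested), with a median of -1.40 against -0.07 over all tested, and it was -1 or lower in 60 (14.7% of all tested). edgeR called 0 members and 0.00526% of all tested, with a lowest adjusted p of 0.245. At an unadjusted p under 0.05 there were 37 members, all negative (5.88% of all tested), and DESeq2 called 6, all negative (0.62% of all tested) and all among its 14 at harvest. In 32 members both GT samples lay above both CL samples at véraison and below both at harvest, as in 10.8% of all tested. Leaving out the 2011 GT sample of E-L38 brought the 37 to 16, and leaving out the 2011 CL sample of E-L38 brought them to 17. Leaving out the 2010 CL sample of E-L35 gave 24, and leaving out the 2011 GT sample of E-L35 gave 22.

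XM_002270580.1 showed the interaction most plainly among the abundant members. At E-L38 it had 29.9 and 38.2 RPKM in GT and 148 and 72.9 in CL, against 385 and 545 in GT and 113 and 208 in CL at E-L35. GT was thus the lower region at harvest and the higher one at véraison, with no overlap at either stage. In the 2011 CL series its harvest level was 131.2% of its véraison level, the one case among the 89 members and 4 series in which the harvest level was not the lower. Its DESeq2 interaction was -2.99 ± 0.65 (SE), with an adjusted p of 0.0023. edgeR did not call it, as the lowest edgeR adjusted p of any member for this interaction was 0.245.

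The corresponding interaction between véraison and mid-ripening lay near 0. Its median was -0.02 over the members and 0.02 over all tested, edgeR called 0 members and 0% of all tested, and 2 members had an unadjusted p under 0.05 (4.18% of all tested). DESeq2 also called 0 (0.042% of all tested).

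At mid-ripening the regions stood in opposite order in the 2 vintages. In 2011 the GT level was below the CL level in 63 members (60.6% of all tested). The median log2 ratio on RPKM + 1 was -0.36, against -0.12 over all tested. In 2010 the GT level was above the CL level in 75 members (68.2% of all tested), with a median of 0.95 against 0.19. In 51 members GT was lower in 2011 and higher in 2010, as it was in 39.6% of all tested. The CL samples accounted for most of the contrast. Without the 2010 CL sample the edgeR median at E-L36 was -0.46, and without the 2011 CL sample it was 0.98. The remaining transcriptome differed in the same samples, since on the scale of E-L35 at 0 and E-L38 at 1 the E-L36 samples lay at 0.60 and 0.69 in the 2011 and 2010 GT samples and at 0.31 and 0.78 in the 2011 and 2010 CL samples. The sample with the lowest position, 2011 CL, had the highest member levels and the one with the highest position, 2010 CL, the lowest. Harvest samples lay at 1.21 and 1.13 in GT and 0.81 and 0.85 in CL on this scale, which was built on the same samples. The part of this position in the differences between regions was not tested.

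Between the vintages, most members were higher in 2011 when véraison, mid-ripening and harvest were fitted together, though not in GT at harvest. In the edgeR fit of the 12 samples of E-L35, E-L36 and E-L38, with stage and region as groups, the log2 ratio of 2011 over 2010 was positive in 82 of 89 members (50.8% of all tested), with a median of 0.39 against 0.00 over all tested. edgeR called 0 members (0.00544% of 18378 tested), 15 members had an unadjusted p under 0.05, all higher in 2011 (5.76% of all tested), and DESeq2 called 4, all higher in 2011 (0.229% of all tested). The CL berries of E-L36 contributed most, with 88 of 89 members higher in 2011 (69% of all tested) and a median of 2.86-fold. The median log2 ratio there was 1.52 over the members and 0.19 over all tested. At harvest, 29 of 89 members were higher in 2011 in GT (54.9% of all tested) and 64 in CL (59.8%). In pea-size berries, which this fit left out, 28 were higher in 2011 in GT (39.7% of all tested) and 37 in CL (40.6%). The median log2 ratio on RPKM + 1 in those berries was -0.50 in GT, against -0.15 over all tested. In CL it was -0.10 against -0.08, so the members lay near all tested. Without either CL sample of E-L36 the median of the vintage comparison was 0.22, with 73 members higher in 2011 and 7 or 8 at an unadjusted p under 0.05.

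XM_002268014.1 (LOC100247747) had the lowest adjusted p of the vintage comparison. It had 56.1 and 9.42 RPKM in the 2011 GT samples of E-L35 and E-L36 and 12.8 and 2.82 in the 2010 ones, and 7.11 and 3.63 in the 2011 CL samples of those stages and 4.74 and 0.271 in the 2010 ones. The log2 ratio was 1.48 ± 0.35 (SE), with adjusted p values of 0.279 in edgeR and 0.00694 in DESeq2. All 4 pairs of samples at these stages had the higher value in 2011. XM_002280737.1, described above, was also called by DESeq2, at 2.45-fold higher in 2011 with an adjusted p of 0.0166.

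The 2 members that lie side by side in the gene table had similar ratios between the regions. Averaged over E-L35, E-L36 and E-L38, XM_002284278.2 had a log2 ratio of GT over CL of -1.05 ± 0.19 (SE) and XM_003634177.1 one of -1.22 ± 0.31 (SE). Their edgeR adjusted p values were 0.0938 and 0.14, and their DESeq2 ones 0.000316 and 0.0102. XM_002284278.2 had 3.23 and 3.92 RPKM in GT and 13.9 and 6.06 in CL at E-L36, and 1.81 and 1.34 in GT and 3.59 and 4.42 in CL at E-L38. XM_003634177.1 had 1.56 and 3.64 RPKM in GT and 10.7 and 3.78 in CL at E-L36, and 0.798 and 0.946 in GT and 4.05 and 2.40 in CL at E-L38. In both, the GT samples lay below the CL samples at E-L36 and E-L38, but the regions overlapped at E-L35. There XM_002284278.2 had 18.3 and 14.5 RPKM in GT and 19.1 and 15.7 in CL. XM_003634177.1 had 11.3 and 12.3 RPKM in GT and 14.7 and 11.6 in CL at that stage. The records are of like length, 5343 and 5303 bases, and 88.98 and 86.7% of their reads were unique, so some reads of each were shared with other transcripts. At this average over the ripening stages edgeR called 0 members and 0% of all tested, 23 members had an unadjusted p under 0.05 (15.5% of all tested), and DESeq2 called 5 (1.12% of all tested), of which XM_002270934.1 and XM_002274755.2 were the 2 higher in GT.

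The difference at harvest was not particular to transcripts that held their level to véraison. Of transcripts with 10 RPKM or more at E-L35 and the same loss by E-L38, 41 stood more than 2-fold above their E-L31 level at E-L35 and 105 were already below 0.5 of it. The median log2 ratio of GT over CL at harvest was -1.28 in the members, -1.36 in those 41 and -1.29 in those 105. It was negative in 91.0% of the members, 92.7% of the 41 and 97.1% of the 105. An unadjusted p under 0.05 with GT lower was reached by 52.8% of the members, 24.4% of the 41 and 32.4% of the 105. The share held at E-L36 was likewise similar, with medians of 37.2% in the members, 44.1% in the 41 and 29.1% in the 105. These shares were set side by side and their differences were not tested.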

How the data were processed

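Reads had been trimmed by the authors and mapped in CLC Genomics Workbench to grape RefSeq transcripts, with multi-hit reads shared out by the unique reads of each transcript. The deposited tables give, for each of 24 libraries, whole-number counts of assigned reads without normalization, counts of unique reads, and RPKM, which the authors scaled to transcript length and library total. Library totals were 3798921 to 22917077 counts, with 78.6 to 86.2% unique reads.

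Counts of the libraries of a sample were summed and their RPKM averaged, since which of a sample's berry lots a library came from is not given in the sources used here. In R 4.3.3, edgeR 4.0.16 (TMM, glmQLFit, glmQLFTest) was fitted to 16 samples in 8 groups, with vintages as the 2 replicates. The alternatives were DESeq2 1.42.0, limma 3.58.1 on log2(RPKM + 1) and log2(RPKM + 0.1), other scaling, no filter, single libraries, a vintage block and leaving out each sample. Stage differences chose the members and carry no test.

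The members and lists were chosen with earlier results of these data known. Named were the 10 members with the highest E-L35 mean, the 5 that held most and the 5 that held least at E-L36, those nearest to the limits, and further members named after their values were seen. Deviations of same-vintage samples correlated at -0.299 to 0.349 over 28 pairs of groups (8 above 0.1), so vintages were not treated as pairs.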

Additional observations from a re-analysis of the deposited data

Results flagged for a closer look

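In 32 members both GT samples lay above both CL samples at E-L35 and below both CL samples at E-L38, so the regions stood in opposite order at the 2 stages. The same held for 10.8% of all transcripts tested. With RPKM divided by the TMM factors the pattern was found in 22 members, all among the 32, and in 6.08% of all tested. The difference between the stages was tested as an interaction in edgeR, which called 0 members (37 at an unadjusted p under 0.05, and 6 called by DESeq2).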

How the results depend on the processing

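edgeR called 0 members in all 8 comparisons, and this count was also 0 with DESeq2 size factors, without the filter on low counts and in limma on RPKM with either pseudocount. With a replicate block for vintage it was 0 in the 7 comparisons of regions. DESeq2 called 1 member at E-L36, 14 at E-L38, 5 in the average over ripening stages, 6 in the E-L35 to E-L38 interaction and 4 between vintages. With single libraries as values the counts were 4 at E-L35, 33 at E-L38, 5 in the ripening average, 29 in that interaction and 2 between vintages, because libraries of 1 sample then count as replicates. Of all tested, 3.51, 1.72, 1.76, 4.06 and 0.441% were called in the same order, so the 4 at E-L35 were near the share of all tested. Leaving out 1 sample gave 0 to 1 called at E-L31 (1 without the 2010 GT sample of E-L31), 0 to 1 in the ripening average (1 without either GT sample of E-L31) and 0 elsewhere.

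The limits gave 211 members on the 2011 samples alone, 70 of them among the 89, and 102 on the 2010 samples alone, with 55 of the 89. They gave 82 with RPKM divided by TMM factors (63 of the 89) and 122 with 0.1 RPKM added in place of 1 (88 of the 89). The median share held at E-L36 was 30.4 to 42.9% when 1 sample of E-L36 was left out. Leaving out 1 E-L38 library, chosen after seeing the data, gave 60 (without the second 2010 CL library) to 70 members with both GT samples below both CL samples, against 68 with all libraries.

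For the 18 members named by rule, 414 alternative values were computed at E-L38. Of these, 395 kept direction and side of the threshold, 7 passed it and 12 changed sign. Leaving out 1 sample gave XM_003631590.1 values of -2.51 to 1.53, XM_002268977.2 of -1.10 to 0.01, XM_002284190.2 of -1.52 to 0.54 and XM_002275951.2 of -0.64 to 0.54, each with the highest value without the 2011 CL sample of E-L38. XM_002275951.2 was also at 0.12 without the 2010 GT sample and at 0.01 and 0.04 in limma with 1 and 0.1 RPKM added. XM_002285161.2 ran over -0.50 (without the 2011 GT sample) to 0.88, was at -0.27 without the 2010 CL sample and at -0.01 and -0.05 in limma. XM_002279177.2 ran over -1.35 to 0.40, with 0.40 without the 2010 CL sample. Causes were not tested. With 2 samples a group and 3798921 to 26627006 counts a sample, members near 1 RPKM at harvest rest on few reads, and 18 members had fewer than 10 counts in at least 1 harvest sample.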
